A study of Gasterosteus aculeatus with 9 samples.

Results

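The gill transcriptome of threespine stickleback (Gasterosteus aculeatus) was profiled at the reference station of a field study, station B, where the labels give 12.912 mg/L chloride. The profile rests on the 3 fish labelled station B, which are 3 of the 9 fish of the series and are called B1, B2 and B3 here after their replicate numbers. The other 6 fish came from station A (26.378 mg/L, fish A1 to A3) and station C (32 mg/L, fish C1 to C3) in the same catchment, and the question of the study was how gill expression changes along this chloride gradient. All fish were wild animals caught by electrofishing and killed with an overdose of MS222, an anaesthetic, and RNA was taken from gill tissue as a whole. Age, sex and body size are not given in the sources used here, so the spread between fish includes all of them. The reads of the 9 fish were assembled without a genome, and each assembled transcript carries the names of the Swiss-Prot proteins it resembles. Counts were summed here over all transcripts with the same first Swiss-Prot name, divided by the total over all transcripts of the fish and scaled to counts per 1000000 (CPM). This gave 10495 names, ranked by the median of the 3 fish. A name is the closest entry in a protein database, often of another species, and a level in CPM is not divided by transcript length, so the ranks describe shares of counts and not numbers of molecules.

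The fish gill exchanges gases, ions, acid and nitrogenous waste with the water across a thin epithelium. Flat pavement cells cover most of its surface, and pillar cells line the blood spaces beneath them. Mitochondrion-rich cells called ionocytes take up or secrete salt with the sodium pump Na+/K+-ATPase. In fresh water, ionocytes that carry the sodium chloride cotransporter NCC take up ions that the animal loses to the dilute surroundings. The gill also holds mucous cells, red blood cells in its vessels, cartilage, muscle and nerve in its arches, and many immune cells.

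The libraries of station B were deep and alike in total. They held 38806347, 32417172 and 35418549 estimated counts in B1, B2 and B3, and the other 6 fish held between 22049066 and 46214540. A limit of 3 counts corresponded to 0.0773, 0.0925 and 0.0847 CPM in the 3 fish of station B. Transcripts with a Swiss-Prot name took 85.2% to 86.7% of the counts at station B, and 8167 names were above 1 CPM in all 3 fish. The rank order of these names was shared closely within the station, with Spearman's rho between 0.967 and 0.974 for the 3 pairs of fish. Against A1 to A3, C1 and C3 the rho of the station B fish lay between 0.941 and 0.972, and against C2 between 0.676 and 0.703. These correlations run over names that share their libraries and are a description. Fish C2 stood apart from the other 8 in its markers too: a list of 21 liver proteins took 98592 CPM in C2 and at most 487 CPM in any other fish, while its ionocyte markers summed to 84.0 CPM, against at least 2061 CPM elsewhere. The edgeR tests of names and lists against the other stations are therefore given with and without C2. Tests of single transcripts and assembled genes include C2, as do those of DESeq2 unless stated.

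The counts at station B were concentrated on few names. The 10 most abundant names held 21.3% of all counts in B1, 17.0% in B2 and 14.3% in B3. The 100 most abundant held 34.8%, 31.5% and 29.8%, and the 1000 most abundant held 59.4%, 57.6% and 56.6%, in the same order of fish. B1 was the most concentrated of the 3 fish and B3 the least at each of these depths. At the other end, 856 names had at most 3 counts in each of the 3 fish.

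Energy metabolism of mitochondria led the ranking. COX1, a mitochondrially encoded subunit of cytochrome c oxidase, held 83442, 69596 and 66506 CPM in B1, B2 and B3 and ranked first. COX2, another mitochondrially encoded subunit of this enzyme, held 9819, 7513 and 8624 CPM. NU5M, a mitochondrially encoded subunit of NADH dehydrogenase, held 14461, 5005 and 4274 CPM, so that B1 had 3.38 times the level of B3. This spread did not hold for the mitochondrial transcripts as a whole: NU5M shares an assembled gene with COX1 and COX2, and that gene summed to 106851, 81376 and 78592 CPM, a ratio of 1.36. Together the 9 measured mitochondrially encoded names took 9.08% ± 1.58 of the counts (SD, n = 3). Subunits of the same machinery with genes in the nucleus were far less concentrated. ADT2, which carries ADP and ATP across the inner mitochondrial membrane, was steady at 4022, 4303 and 3879 CPM, and the 76 nuclear names of the respiratory chain and ATP synthase summed to 0.938% ± 0.111. Their highest members were AT5G3 and ATPB, both subunits of ATP synthase, with medians of 1125 and 980 CPM, followed by NDUA4, of cytochrome c oxidase, at 569 CPM.

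A name of ribosomal DNA ranked second. TAR1 is a yeast protein entry encoded on the strand opposite to ribosomal RNA, so transcripts with this name resemble sequence of the ribosomal RNA genes. They held 63887, 40149 and 25933 CPM in B1, B2 and B3, which is a 2.46-fold spread and the largest difference in CPM between fish of any name. At the other stations TAR1 lay between 20282 and 104452 CPM. S10A6, a small calcium-binding protein, ranked next with 7775, 17807 and 12837 CPM, highest in B2. Other abundant names give no function. Y1113 and Y1065 are uncharacterized archaeal entries, which stood at 3057, 3433 and 3602 CPM and at 2002, 2274 and 2287 CPM. Transcripts without any Swiss-Prot name took 14.3% of the counts on average, and 9 of them exceeded 1000 CPM, the highest with a median of 3957 CPM.

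**Figure D1:**
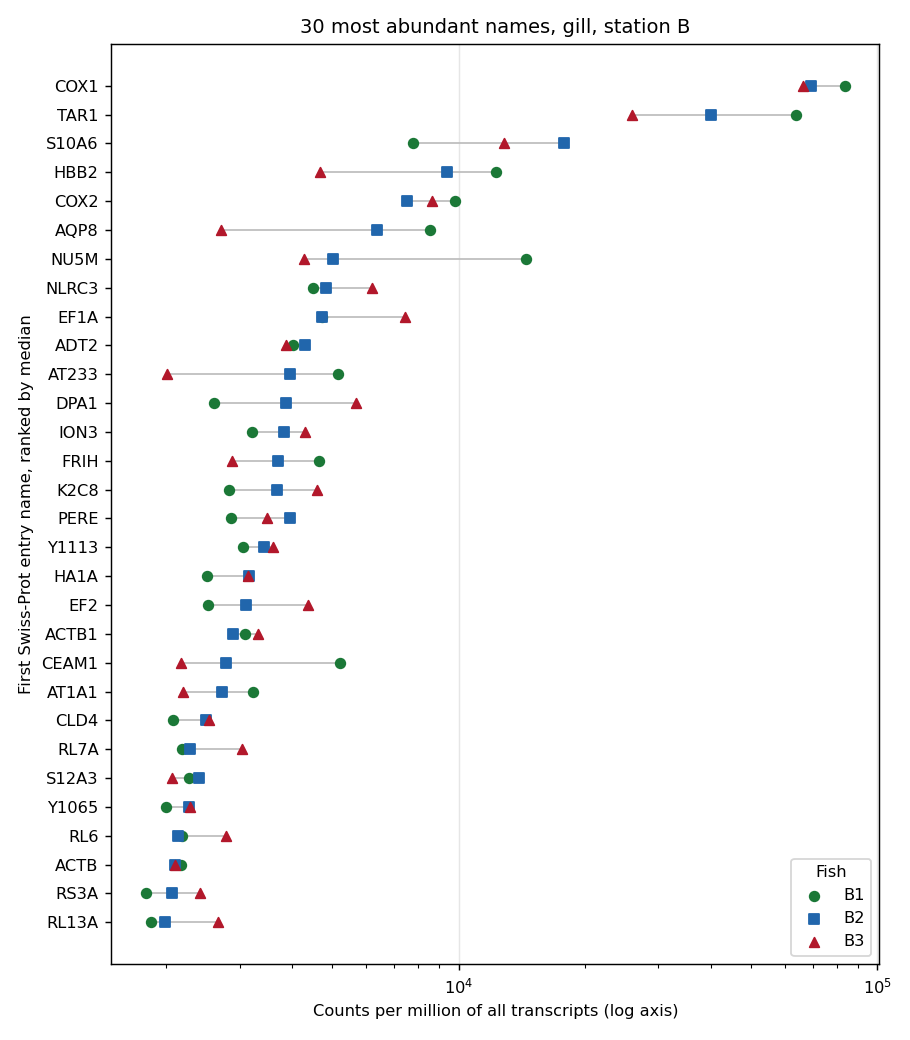
Levels of the 30 most abundant names in the 3 fish of station B, in CPM on a log axis, with 1 symbol per fish and a line over their range. COX1 and TAR1 stand apart from the rest, HBB2, AQP8 and AT233 run in the order B1, B2, B3, and EF1A, EF2 and the ribosomal proteins are highest in B3.

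Blood made up a visible share and differed between the fish. HBB2, a beta chain of haemoglobin, held 12252, 9388 and 4677 CPM in B1, B2 and B3. The name AQP8, a water channel, ranked sixth with 8528, 6378 and 2707 CPM, but its only transcript also matched HBA2, an alpha chain of haemoglobin, and carried both a globin and a water channel domain. Its ratio of B1 to B3, 3.15, was close to the 2.62 of HBB2, and its level cannot be divided between both proteins. Other red cell genes ran in the same order. B3AT, the anion exchanger of the red cell membrane, had 488, 444 and 187 CPM, and KLF1, a transcription factor of red cell formation, had 39.5, 29.5 and 14.2 CPM. Of 7 red cell names of at least 5 CPM, 6 were highest in B1 and lowest in B3, an order found in 13.5% of all 7234 names of this level. The list summed to 13779, 10665 and 5451 CPM without AQP8. In bulk tissue, fewer cells of a type and less RNA per cell cannot be told apart.

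Epithelial genes were abundant in all 3 fish. K2C8, a keratin of simple epithelia, held 2825, 3681 and 4604 CPM, and ION3, an intermediate filament protein first described in goldfish, held 3207, 3830 and 4291 CPM. CLD4, a claudin of tight junctions, held 2081, 2488 and 2542 CPM, and PEPL, periplakin of the cornified envelope and desmosomes, held 1521, 1533 and 1565 CPM. The desmosomal proteins DESP and DSG2 had medians of 1125 and 728 CPM, and the epithelial transcription factors GRHL1, GRHL2 and P63 had 519, 339 and 114 CPM. The 29 measured names of the epithelial list took 14241, 16495 and 17477 CPM in B1, B2 and B3. Of the 29, 25 reached 5 CPM and 20 exceeded 100 CPM, so the labelled tissue carried its defining markers. In 13 of the 25 B3 was highest and B1 lowest, against 19.7% of all names, and in 0 the reverse. With TMM factors in place of totals 9 of the 25 had this order, and the sum was higher in B2 than in B3.

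The ionocyte list showed the transporters of a freshwater gill. S12A3, the NCC cotransporter, had 2278, 2405 and 2067 CPM, a ratio of 1.16 between the highest and the lowest fish. RHBG and RHCG, channels for ammonia, followed with medians of 1201 and 1199 CPM, and CAH4, a membrane-bound carbonic anhydrase, with 1051 CPM. FOXI1, the transcription factor that specifies ionocytes, had 262, 193 and 127 CPM. S12A2, the cotransporter that ionocytes of seawater fish use for salt secretion, was at 88.2, 97.9 and 123 CPM. Other members differed between fish. RHCG1, another ammonia channel, had 874, 1902 and 328 CPM, a 5.80-fold range, and SL9A3, a sodium/proton exchanger at the outer membrane, had 756, 825 and 249 CPM. The list summed to 8485, 10970.5 and 6501 CPM, highest in B2 and lowest in B3, and 8 of its 13 members of at least 5 CPM were highest in B2, against 27.1% of all names. CFTR, MUC2 and CD3E, which mark chloride-secreting ionocytes, mucous cells and T cells, were not among the names of the table and were not analysed here.

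The sodium pump itself was abundant and uneven. AT233, a beta subunit named after an eel protein, held 5158, 3954 and 2011 CPM, and AT1A1, the alpha subunit that binds sodium and potassium, held 3234, 2730 and 2201 CPM. Both were highest in B1 and lowest in B3, with ratios of 2.57 and 1.47. Subunits of the V-type proton pump, which acidifies compartments and drives ion uptake in freshwater fish, differed little: their 21 names summed to 1359, 1480 and 1326 CPM, and VATG1, VAS1 and VATB2 led them with medians of 210, 201 and 155 CPM.

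**Figure D2:**
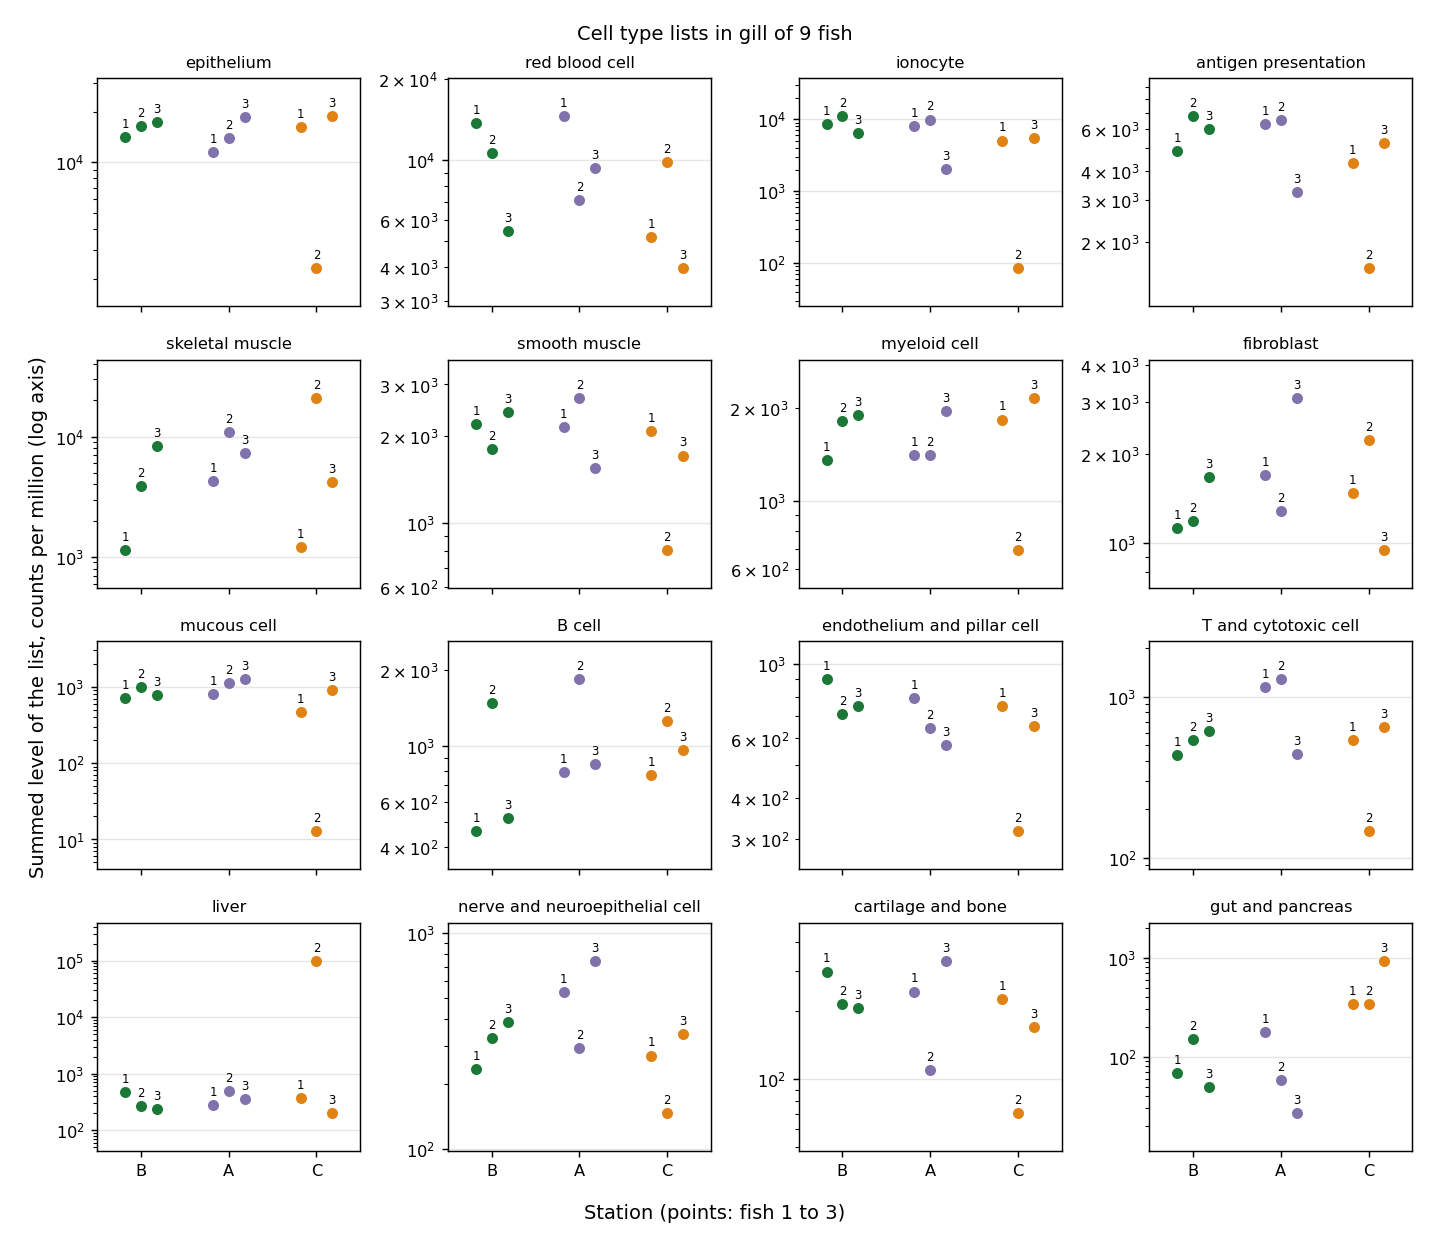
Summed levels of 16 cell type lists in each of the 9 fish, in CPM on a log axis that differs between panels, with stations B, A and C from left to right and the fish number above each point. Fish C2 lies apart in most panels, and within station B the skeletal muscle list spreads most, from 1146 CPM in B1 to 8294 CPM in B3.

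Immune genes were abundant as well. NLRC3, a cytosolic receptor of the NLR family, ranked eighth with 4495, 4813 and 6213 CPM over 60 transcripts, and 83.9% of this came from 1 transcript with a FISNA domain, which fish NLR proteins carry. DPA1, an alpha chain of MHC class II, had 2607, 3864 and 5697 CPM, and HA1A, a heavy chain of MHC class I, had 2503, 3162 and 3135 CPM. B2MG, the light chain of class I, had a median of 1940 CPM, and HA1F, another class I heavy chain, one of 516 CPM. PERE, a peroxidase of eosinophil granules, had 2868, 3958 and 3483 CPM. The list of myeloid cells summed to 0.169% ± 0.0293 of counts, led by LEG3 (galectin 3), CY24B (an oxidase subunit of phagocytes) and MPEG1 (a pore-forming protein of macrophages) with medians of 1082, 259 and 140 CPM. The T and cytotoxic cell list took 0.0528% ± 0.00902, led by perforin (PERF) at a median of 224 CPM and the T cell kinase LCK at 79.5 CPM. IGM, the heavy chain of the antibody IgM, was nearly even at 359, 396 and 405 CPM. In the list of interferon-responsive genes, IRF1, a transcription factor, and GVIN1, a large GTPase, had medians of 453 and 452 CPM, and both were lowest in B1.

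Other cell types had small shares. The mucous cell list, led by AGR2, MUC5A and AGR3 with 480, 213 and 61.9 CPM, took 0.0829% ± 0.0154 of counts, and MUC5B was at 0 in all 3 fish as a first name, although the transcript with 87.7% of MUC5A also carries it as a second name. The endothelium and pillar cell list took 0.0787% ± 0.0100, with KLF2, PECA1 and S1PR1 at 297, 147 and 82.7 CPM. The fibroblast list took 0.133% ± 0.0304, led by both chains of collagen I, CO1A2 and CO1A1, at 356 and 297 CPM, followed by the proteoglycan PGS2 at 104 CPM, while CO3A1 was at 0. Smooth muscle markers took 0.214% ± 0.0309, with TAGL, RGS5 and CALD1 at 801, 281 and 274 CPM. Cartilage names were low: CO2A1, the main collagen of cartilage, was at 0.232, 0.154 and 0.530 CPM and HPLN1 at 0. COAA1, collagen X, stood above them at 256, 174 and 147 CPM, with COBA1 at 21.5 CPM and SNED1 at 12.8 CPM. The list of nerve and neuroepithelial cells was led by MBP, a myelin protein, at 229 CPM, CMGA, a protein of secretory granules, at 29.9 CPM and MYP0, also of myelin, at 18.2 CPM, and TPH2 had at most 3 counts in each fish.

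Most marker genes of liver, gut and pancreas were low. Of 21 liver names, 4 reached 5 CPM at station B, led by CP1A1, CO3 and CO5 with medians of 138, 107 and 42.5 CPM. The plasma protein genes FIBB, FIBG, HEMO, FETUA, VTNC, THRB, PROC and PLMN and the fatty acid carrier FABPL had at most 3 counts in each of the 3 fish. The gut and pancreas list summed to 49.5 to 151 CPM, led by FABPI, CEL2A and TRY1 with medians of 56.0, 10.7 and 1.26 CPM. TRY2, a trypsin name with 0.0784, 82.2 and 0.337 CPM, made up most of the sum in B2, while TRY3, CTRA and CEL had at most 3 counts. TRY2 shares an assembled gene with the trypsin names TRY4 and TRY6, which were outside this list, and that gene had 380, 1056 and 2464 CPM.

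Protein synthesis was the largest function outside the mitochondrion. The 113 names of cytosolic ribosomal proteins took 43719, 45881 and 58728 CPM in B1, B2 and B3. Of the 77 members of at least 5 CPM, 72 were highest in B3, against 42.5% of all names. The elongation factors EF1A and EF2 followed the same order, with 4712, 4729 and 7441 CPM for EF1A and 2519, 3100 and 4374 CPM for EF2. This order stood with TMM factors too, where 72 of the 77 were highest in B3, against 30.6% of all names. Among the names of ribosomal proteins, 92 were checked, and some of them, such as RL5 and RL5A, may stand for the same protein. Of the 92, 42 exceeded 100 CPM and 48 stayed under 30 CPM. RL6 had a median of 2181 CPM, for example, while RL23A was at 0 by the first name and at 340 CPM where it was the second name of a joined transcript. Counting every name of a transcript brought 49 of the 92 over 100 CPM. Genes that all cells use were also nearly empty elsewhere, such as TPIS, a glycolytic enzyme, at 0, 0.123 and 0 CPM. A low or absent name in this table thus does not show that the gill lacks the transcript.

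Further functions took smaller shares. The actin and tubulin list took 0.766% ± 0.0290 of counts, with ACTB1 at 3086, 2888 and 3316 CPM and ACTB at 2180, 2110 and 2099 CPM, followed by the crosslinker FLNA at a median of 495 CPM. FRIH, the heavy chain of the iron store ferritin, held 4634, 3706 and 2886 CPM, while IREB2 and TFR1, which regulate and import iron, had medians of 189 and 153 CPM. The proteasome took 0.331% ± 0.0375, led by PSB9, a subunit of the immune proteasome, at 384, 741 and 540 CPM. Its members PSA3 and PSA2 had medians of 373 and 340 CPM, and 16 of its 23 members of at least 5 CPM were highest in B2, against 27.1% of all names. Chaperones took 0.258% ± 0.0417, led by TCPE, TCPA and TCPD, subunits of the folding chamber TRiC, with medians of 410, 402 and 298 CPM. Antioxidant genes took 0.245% ± 0.0241, with GSTA, PRDX1 and SODC at 593, 524 and 503 CPM, and clock genes 0.0548% ± 0.00596, with CRY1, HLF and RORB at 112, 98.8 and 91.7 CPM. Transposon proteins took 0.131% ± 0.0243, led by TCB1, POL4 and RTBS with medians of 296, 169 and 138 CPM.

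The differences between the 3 fish were then measured over all names. Of 5162 names with a median of at least 20 CPM at station B, the median ratio of the highest to the lowest fish was 1.24, and 318 names exceeded a ratio of 2. A ratio of 3 was exceeded by 108 names, or 2.09%. The names just above this limit were ERB1, EGR1 and TPM1 with ratios of 3.05 to 3.09, and those just below were CAH5B, RGS2 and PPIB with 2.95 to 2.96. Among the 108, 60 were highest in B3, 28 in B2 and 20 in B1, and 57 were lowest in B1. Without B1 61 names exceeded a ratio of 3, without B2 82 and without B3 66. At station A the same limit was exceeded by 4.17% of names. The most even names of at least 100 CPM were TPPC8, a trafficking protein, at 113, 112 and 112 CPM, ZFAN3 at 124, 124 and 124 CPM, ZZEF1 at 132, 133 and 132 CPM, ITB1, integrin beta 1, at 209, 208 and 209 CPM, and PTMAB, prothymosin alpha, at 374, 372 and 372 CPM.

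Part of the variation lay in how reads were divided among transcripts of 1 gene. Of transcripts with a name and a median of at least 20 CPM, 13.4% exceeded a ratio of 3, against 2.93% of assembled genes and 2.09% of names. There were 1153 transcripts that reached 20 CPM in 1 fish of station B and had at most 3 counts in another, and 918 of them belonged to 532 names whose own ratio was under 1.5. TM269 is an example, chosen after its values were seen: 1 of its transcripts had 0, 807 and 349 CPM in B1, B2 and B3, another had 571, 0 and 403 CPM, and the name summed to 834, 832 and 1108 CPM. OST48, a subunit of the complex that attaches sugars to proteins, had 1 transcript at 490 CPM in B2 and at 0 in B1 and B3, while the name stood at 351, 490 and 392 CPM. Differences between allelic sequences, splicing and the division of reads by the counting program cannot be told apart in these values.

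**Figure D3:**
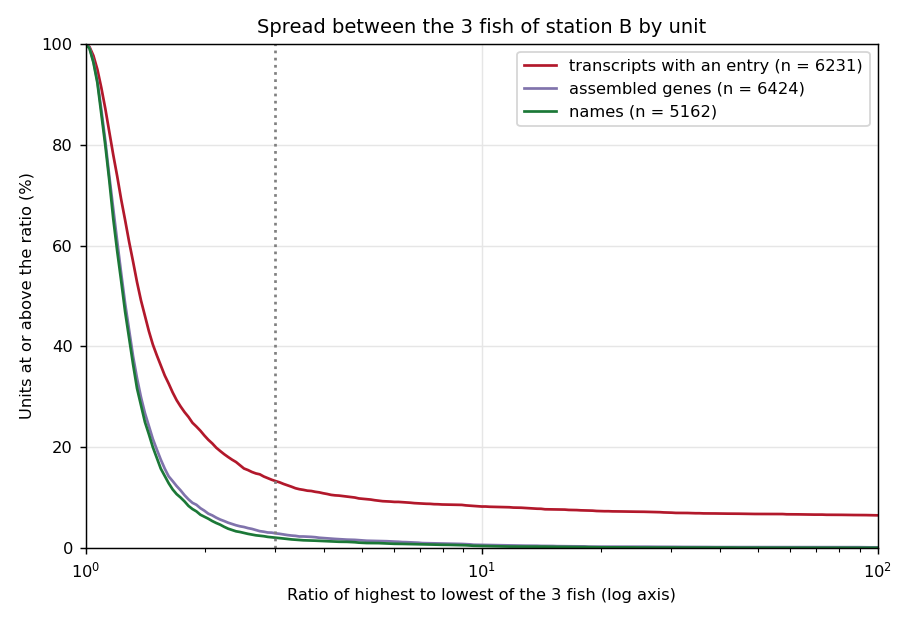
Share of units at or above a given ratio of the highest to the lowest fish of station B (log axis), for transcripts with a Swiss-Prot name, assembled genes and names of at least 20 CPM. The dotted line marks a ratio of 3, which 13.4% of transcripts, 2.93% of assembled genes and 2.09% of names exceeded.

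The same check was applied to the 108 most variable names, by taking the whole assembled gene that held most of the counts of each name. The gene also exceeded a ratio of 3 for 80 of them, and its ratio was at most 1.5 for 16. For 49 of the 108 the gene also carried another name. Where a gene held only the transcripts of 1 name, its sum repeated that name and the check could not fail, as for PF23B with a ratio of 9.82 both ways. The 80 are therefore not 80 separate checks, and names that share a gene, such as MBL2 and LADD, are counted separately. CD22, a B cell receptor by name, had 41.9, 1028 and 35.0 CPM, but 2 transcripts with 501 and 487 CPM in B2 and at most 0.148 CPM in B1 and B3 made up nearly all of the difference. Both belong to the assembled gene of CEAM1, an abundant immunoglobulin-domain protein at 5212, 2792 and 2174 CPM, and that gene summed to 5643, 4922 and 2345 CPM. The B cell list, at 461, 1477 and 518 CPM, owed its range to this name, since its members IGM and BLNK had ratios of 1.13 and 1.46. GET1, a membrane protein insertion factor at 1.52, 65.1 and 58.8 CPM, had a gene sum of 472, 545 and 465 CPM. SC22B (57.0, 2.49 and 60.4 CPM) and CLK1 (80.0, 37.6 and 4.77 CPM) likewise had gene sums of 57.2, 63.6 and 60.4 CPM and of 321, 307 and 354 CPM. MCM6, a DNA replication factor at 3.51, 20.004 and 52.2 CPM, had a gene sum of 42.0, 52.2 and 85.2 CPM.

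**Figure D4:**
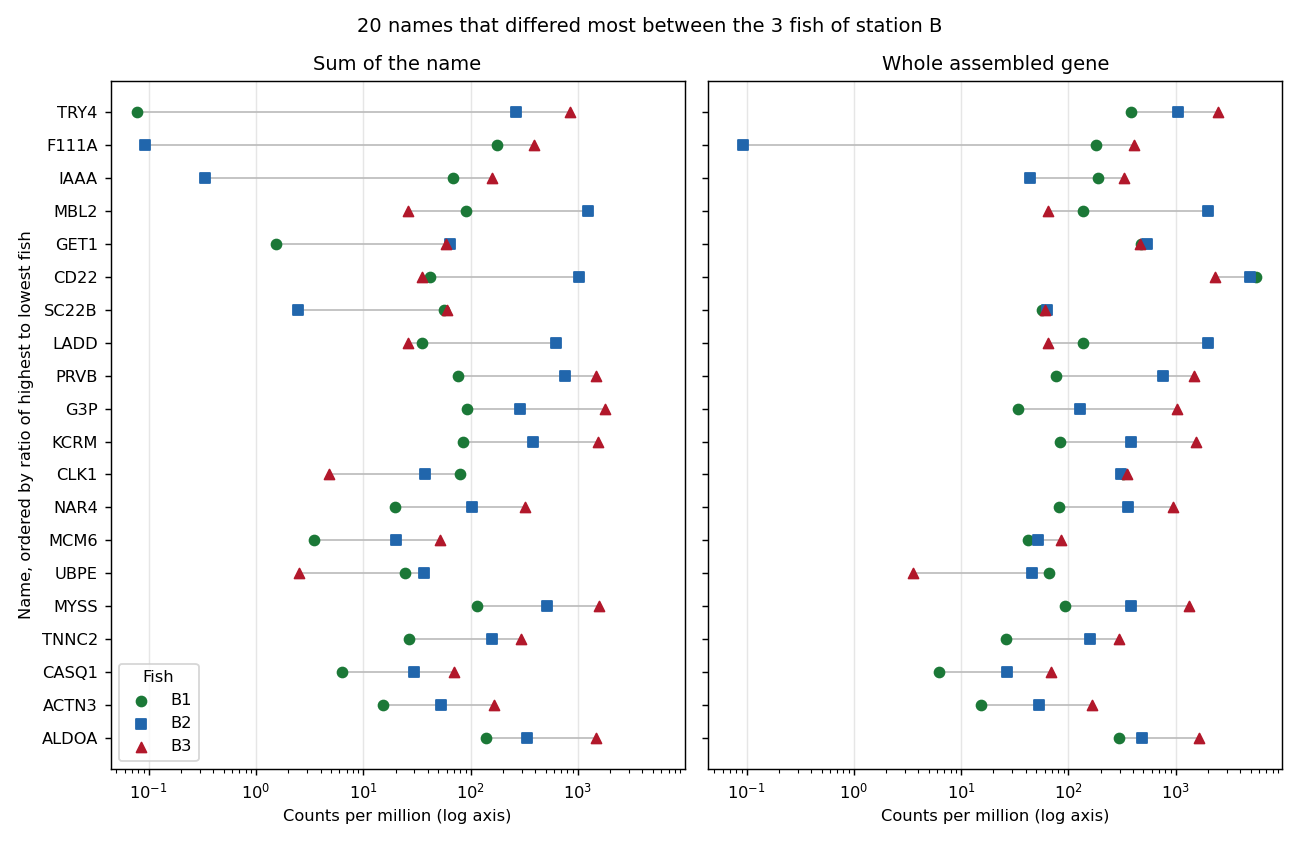
Levels of the 20 names with the largest ratio between the fish of station B (left) and of the assembled gene that holds most of their counts (right), in CPM on a log axis, with 1 symbol per fish and values under 3 counts drawn at that limit. The range closes on the right for GET1, SC22B and CLK1 and narrows for CD22 and MCM6, while PRVB, KCRM, MYSS and the other muscle names keep the order B1, B2, B3.

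Skeletal muscle was the cell type that varied most. Its 34 measured names summed to 1146 CPM in B1, 3894 CPM in B2 and 8294 CPM in B3, a 7.24-fold range, and the median ratio of its 26 members of at least 5 CPM was 7.59, against 1.28 over all 7234 names of this level. In 22 of the 26 members B3 was highest and B1 lowest, which was the order of 19.7% of all names. PRVB, the calcium buffer parvalbumin, had 76.3, 765 and 1476 CPM. MYSS, a skeletal myosin heavy chain, had 115, 515 and 1590 CPM, and KCRM, muscle creatine kinase, had 84.3, 385 and 1533 CPM. The troponin subunit TNNC2 (26.5, 159 and 299 CPM), the calcium store protein CASQ1 (6.34, 29.99 and 70.3 CPM) and the actin crosslinker ACTN3 (15.3, 53.2 and 166 CPM) followed the same order. ACTS, an actin of skeletal muscle, did not, with 342, 294 and 387 CPM. The muscle troponin TNNT1 had at most 3 counts in each fish. Genes of glycolysis did not move together. Of 16 glycolysis names of at least 5 CPM, 6 were highest in B1, 3 in B2 and 7 in B3, against 30.4%, 27.1% and 42.5% of all names. G3P had 93.3, 292 and 1776 CPM, ALDOA 139, 334 and 1489 CPM and PGAM2 18.1, 47.2 and 161 CPM, while G3P2 had 1031, 788 and 773 CPM, ENOA 432, 323 and 343 CPM and PGAM1 92.4, 100 and 91.0 CPM. ENOB and PFKAM were also highest in B3, with ratios of 3.22 and 3.19, but the assembled genes that hold most of them had ratios of 1.74 and 1.23. Among muscle names outside the list, MLRSA, a myosin light chain, had 72.1, 651 and 677 CPM, FLNC, a filamin of muscle, had 13.6, 55.8 and 34.9 CPM, and ACTM, a muscle actin, ran the other way with 229, 38.0 and 34.1 CPM, although the assembled gene that holds most of it had 739, 795 and 887 CPM. These 3 names were chosen after their values were seen. The list lay between 4257 and 10896 CPM at station A and at 1211, 20914 and 4168 CPM in C1, C2 and C3, so that B1 had the lowest value of the 9 fish. The share of muscle tissue in each gill sample is not given in the sources used here.

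**Figure D5:**
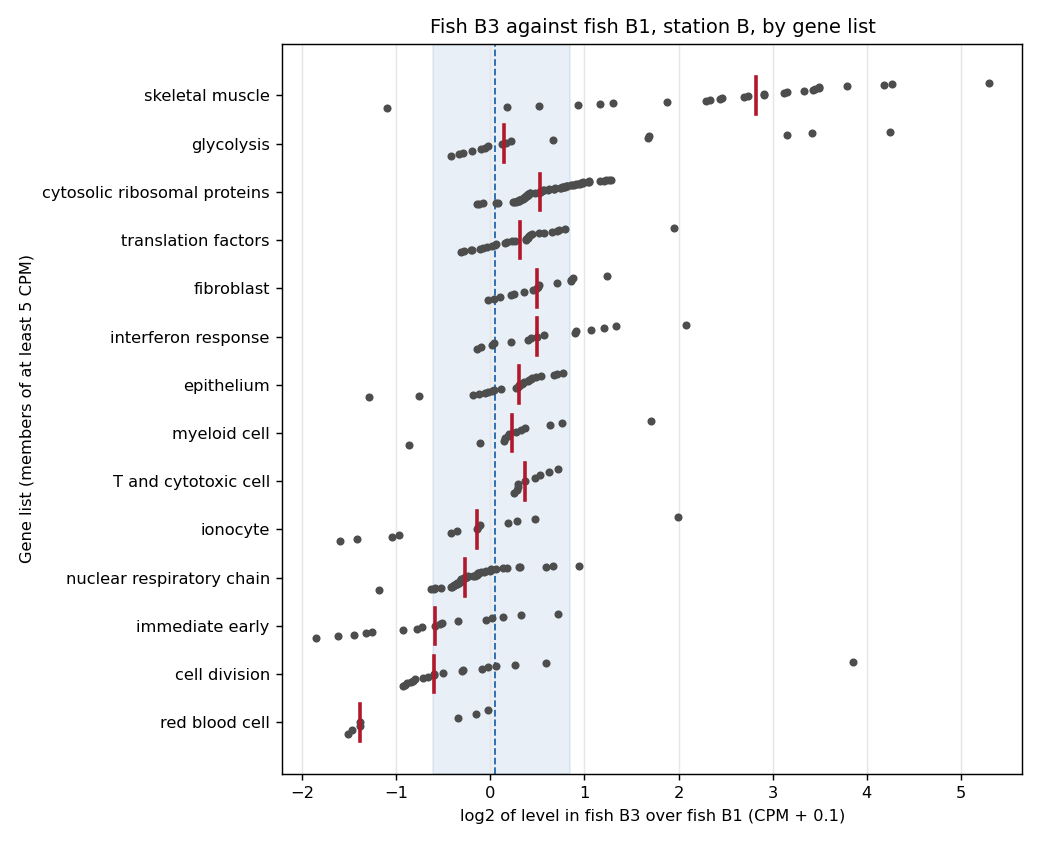
Log2 of the level in fish B3 over fish B1 for members of 14 gene lists with at least 5 CPM, with 1 dot per name and a red bar at the median of each list. The dashed line and the shaded band give the median of 0.05 and the 5th to 95th percentile, from -0.61 to 0.84, of all 7234 names. The skeletal muscle list has a median of 2.82 and the red blood cell list one of -1.39.

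Several other groups differed between the fish in one direction. Of 52 nuclear respiratory chain names of at least 5 CPM, 27 were highest in B1 and lowest in B3, against 13.5% of all names. All 6 mitochondrially encoded names of this level were highest in B1, against 30.4% of all names, and 2 of them were also lowest in B3. Among these 6, COX1, COX2 and NU5M share an assembled gene. Immediate early genes, which cells switch on within minutes of a stimulus, were highest in B1 in 13 of 17 members, against 30.4% of all names. Their most abundant members were MCL1 at 711, 657 and 720 CPM, KLF2 at 383, 297 and 264 CPM and BTG1 at 219, 267 and 276 CPM. EGR1 had 120, 105 and 39.0 CPM, EGR3 89.5, 39.2 and 24.8 CPM and NR4A1 67.8, 35.8 and 24.8 CPM. Of 15 fibroblast names of at least 5 CPM, 13 were highest in B3, against 42.5% of all names, and with TMM factors 12 were, against 30.6%. The cell division list, led by RIR1, RIR2 and UHRF1 with medians of 279, 72.5 and 71.4 CPM, summed to 750, 853 and 707 CPM. Of its 19 members of at least 5 CPM, 8 were highest in B1, 9 in B2 and 2 in B3, against 30.4%, 27.1% and 42.5% of all names. In 6 of the 19 B1 was highest and B3 lowest, against 13.5% of all names. The median log2 ratio of B3 to B1 was -0.59 for these members, against 0.05 for all names. Members of a list share their libraries and often their cells, so these counts describe 3 fish and not independent events. The highest and the lowest fish were the same under 3 other scalings for 29 of the 33 lists, the exceptions being the lists of epithelium, endothelium and pillar cells, myeloid cells, and actin and tubulin.

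Single genes of defence and digestion varied as strongly as muscle. TRY4, a name of the digestive protease trypsin, had 0, 268 and 837 CPM in B1, B2 and B3, which was at least 10826-fold higher in B3 than in B1, taking the limit of 3 counts for B1. TRY6, from the same assembled gene, had 355, 641 and 1480 CPM, and the whole gene had 380, 1056 and 2464 CPM. F111A, whose transcripts carry a trypsin-like domain, had 175, 0.0361 and 391 CPM, and its whole gene had 0.0617 CPM in B2, under the limit of 3 counts. MBL2 and LADD, both names of C-type lectins that bind sugars, share 1 assembled gene that had 136, 2021 and 64.6 CPM. At station A the fish also differed widely in this pair, with 29.0, 286 and 0 CPM for MBL2. NAR4, an ADP-ribosyltransferase, had 19.7, 104 and 321 CPM in 1 gene with the name HIRA, whose sum was 81.5, 359 and 951 CPM. UBPE, with a ubiquitin hydrolase domain, had 24.6, 36.8 and 2.54 CPM. IAAA, a bacterial peptidase entry, had 69.3, 0.339 and 157 CPM, but its transcripts carry domains of other enzymes, so the name gives no function. The whole gene of IAAA had 190, 43.9 and 331 CPM. CHIA, an acidic chitinase, had 52.6, 337 and 84.4 CPM, and CHS2, a chitin synthase, had 17.0, 101 and 43.8 CPM, both highest in B2. AHR, by name the receptor for aromatic pollutants, had 1018, 483 and 1630 CPM, and HSPB1, a small heat shock protein, had 13.9, 71.0 and 50.3 CPM. The assembled gene that holds most of AHR also carries the name TF212 and had 930, 212 and 1635 CPM. CHIA, CHS2, AHR and HSPB1 were chosen after their values were seen.

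Station B was then set against the other 6 fish with edgeR's quasi-likelihood test over 9255 names, with station B minus the mean of stations A and C as the contrast. No name was called at an adjusted p (Benjamini-Hochberg) up to 0.05 with a log2 fold change beyond 1 in either direction, so that 0% were called in either direction, and 287 names had an unadjusted p under 0.05. Without C2, 1 of 9344 names was called higher at station B (0.0107%) and none lower (0%), and 631 had an unadjusted p under 0.05. DESeq2's Wald test with all 9 fish called 2 names higher (0.0216%) and 8 lower (0.0864%) at station B, with 551 at an unadjusted p under 0.05. These percentages are of the 9255 names entered, and DESeq2 left some of them without an adjusted p. The 2 called higher were CASP9 and IAAA, and IAAA had a log2 fold change of 6.21 (SE 1.33) with 0.339 CPM in B2. The assembled gene of IAAA, shared with the name THTM, had 190, 43.9 and 331 CPM in B1, B2 and B3. It had 47.6 to 54.3 CPM at station A and 67.6 to 94.6 CPM at station C, so B2 lay below the other stations. Among the 8 called lower, DCDC2 had a log2 fold change of -23.5 (SE 2.76), MYH16 one of -6.57 (SE 1.60) and MYO3 one of -6.39 (SE 1.58). These 3 estimates include C2. The levels of the 3 names in each fish are not reported here, so the estimates are not read as sizes of a difference. Without C2, a run chosen after seeing the data, DESeq2 called 6 of the 9344 names entered higher and 3 lower at station B. All 3 fish of station B lay above all 6 others in 2.13% of the names, in CPM, and below them in 0.551%. Without C2 they lay above the 5 others in 2.51% and below them in 2.04%.

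The name with the smallest p was CASP9, the caspase that starts the mitochondrial route of cell death. Its only transcript had 5.69, 3.80 and 6.27 CPM in B1, B2 and B3, against 0.207, 0.332 and 0.393 CPM in A1 to A3 and 0.273, 0.0305 and 0.305 CPM in C1 to C3. Station B did not overlap with the other stations. The log2 fold change was 4.30 (SE 0.47) with an adjusted p of 0.170 in edgeR, and without C2 it was 4.10 with an adjusted p of 0.0308. DESeq2 called CASP9 with all 9 fish, with a log2 fold change of 4.26 and an adjusted p of 1.22e-21. The assembled gene that holds this transcript, which also carries the name DJC16, had 8.55, 6.88 and 8.68 CPM at station B, between 0.525 and 0.726 CPM at station A and between 0.229 and 0.606 CPM at station C. It was the only assembled gene called when counts were summed per gene, with a log2 fold change of 3.92 (edgeR adjusted p = 0.00369). The name DJC16 itself, mostly from other genes, had 67.2, 75.7 and 67.6 CPM at station B, against 58.6 to 65.6 CPM at station A and 73.7, 18.5 and 67.7 CPM at station C.

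Of the other 5 names with the smallest p in either direction, edgeR called none, with or without C2, while DESeq2 called ACAD9 and IGM as lower at station B. Without C2, DESeq2 still called ACAD9 but not IGM. The log2 fold change of IGM was then -0.90, short of the limit of 1, while its DESeq2 adjusted p fell to 3.15e-10. LSG1, a GTPase of ribosome assembly, had 24.3, 21.7 and 27.99 CPM at station B, against 11.2 to 13.9 CPM at station A and 8.55 to 17.5 CPM at station C, with a log2 fold change of 0.84 (0.87 without C2) and an adjusted p of 0.931 in edgeR. MSB1A, a reductase of oxidized methionine, had 82.5, 71.3 and 70.5 CPM at station B and between 23.0 and 59.3 CPM in the other fish, with a log2 fold change of 0.56 (0.54 without C2). In the other direction, the names with the smallest p were ACAD9, IGM and TXB1A. ACAD9, an assembly factor of NADH dehydrogenase, had 0.773, 1.02 and 1.33 CPM at station B and between 4.20 and 11.03 CPM in the other 6 fish, with a log2 fold change of -2.72 (SE 0.36) and an adjusted p of 0.382 in edgeR, or -2.71 and 0.403 without C2. In DESeq2 its adjusted p was 5.34e-11. IGM had 359, 396 and 405 CPM at station B and between 543 and 853 CPM elsewhere, with a log2 fold change of -1.002 in edgeR, or -0.90 with an adjusted p of 0.403 without C2, and an adjusted p of 0.00016 in DESeq2. TXB1A had 13.4, 13.5 and 18.2 CPM at station B and between 18.5 and 30.9 CPM elsewhere, with a log2 fold change of -0.87 (-0.79 without C2). In DESeq2 the adjusted p of LSG1, MSB1A and TXB1A was 0.0044, 0.0085 and 0.0077, or 0.0052, 0.0196 and 0.0068 without C2. Their log2 fold changes fell short of the limit of 1, so they were not called. IGM is counted over 8 transcripts of 1 assembled gene of a repeated family, so its level is uncertain. All transcripts of LSG1 also match FA43A, those of TXB1A also match 3HIDH, and that of ACAD9 also matches YC006. Their levels cannot be assigned to the first name alone.

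At the level of single transcripts, edgeR called 7 of 58064. A transcript of UBAD2 was at 0 in all 3 fish of station B and between 21.7 and 54.7 CPM in the other 6, and a transcript of AP1AR was at 0 at station B and between 4.04 and 12.02 CPM in the other 6. Their names overlapped with other fish: UBAD2 as a whole had 46.2, 48.2 and 54.8 CPM at station B, against 21.7 to 54.7 CPM in the other 6 fish, and AP1AR had 56.2, 55.5 and 55.0 CPM, against 19.6 to 57.8 CPM in the other 6. The other 5 called transcripts were at 0 in C1 to C3 and present in all 3 fish of station A as well as of station B, so they did not set station B apart from station A.

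With edgeR none of the 33 lists had a called member in the comparison of station B with stations A and C, with or without C2. DESeq2 called IGM of the B cell list with C2. Without C2 its adjusted p in DESeq2 was smaller, but its fold change fell short of the limit. The median log2 fold change of all tested names was -0.03 with C2 and 0.00 without it. Median log2 fold changes of the lists moved with C2: the skeletal muscle list had -1.17 with C2 and 0.08 without it, and the liver list -4.23 with C2 and -0.07 without it. The ionocyte list had 0.46 with C2 and 0.37 without it. Of 75 nuclear respiratory chain names, all 3 fish of station B were above all 6 others in 8, against 2.13% of all names, without C2 they were above the 5 others in 9 of 76, against 2.51%, and the median log2 fold change was 0.06, or 0.29 without C2. The ribosomal list had medians of 0.01 and, without C2, 0.22. In the B cell list the medians were -0.91 and -0.48, and IGM was its only member below all other fish.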

How the data were processed

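Gill RNA of 9 wild fish, 3 at each of 3 stations, was sequenced after TruSeq library preparation. The authors trimmed the reads with Trimmomatic, assembled those of all fish with Trinity, removed transcripts of low expression, obtained estimated counts from Salmon, and used Trinotate for the Swiss-Prot names. The deposited values are these estimated counts for 98643 transcripts, of which 49.4% of values are whole. Each sample is taken here as a single fish, and the sources used here do not mention pooling.

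Counts were summed per first Swiss-Prot name with pandas 2.3.3 (Python 3.11.15) over 10495 names and scaled to CPM over all transcripts of a fish, 22049066 to 46214540 counts. Transcripts that match several proteins (5185, with 10.9% of the counts at station B) went to the first name only. Fish were grouped by the station in their labels. The labels call them biological replicates. Station B was compared with the mean of stations A and C by the quasi-likelihood test of edgeR 4.0.16 (R 4.3.3) on rounded sums, with TMM factors, edgeR's filter on low counts and Benjamini-Hochberg adjustment, at an adjusted p up to 0.05 with a log2 fold change beyond 1 in either direction. DESeq2 1.42.0, other scalings, filters and units of summation, and leaving out each fish were alternatives. The edgeR step was tested on simulated data with the same spread for all names and no fish like C2. That test does not show how many changes the step would find in the real data. Log2 ratios of B3 to B1 used 0.1 CPM as a pseudocount.

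Text and figures name the 30 most abundant names, the 20 with the largest ratio between fish among those of at least 20 CPM, the 5 most even of at least 100 CPM, the 3 most abundant members of each of 33 lists, cell type markers at no more than 3 counts, and the 3 names with the smallest p in each direction. Other names were added after their values were seen, and a few that this rule selects are not reported here. The members and lists were chosen with earlier results of these data known, and a few entries that belong to other genes were removed from 3 lists after the table was seen.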

Additional observations from a re-analysis of the deposited data

How the results depend on the processing

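The share of the 10 most abundant names at station B lay between 15.7% and 20.4% over all alternatives, those that leave out a fish included, against 17.5% as reported. The count of names past a ratio of 3 between the fish of station B was 231 with a minimum of 5 CPM and 60 with a minimum of 50 CPM in place of 20 CPM, where it was 108, and it lay between 61 and 82 when each fish was left out, since fewer fish span a smaller range. In the comparison of station B with stations A and C, edgeR called no name. DESeq2 called 10, edgeR called 7 transcripts without summation and 1 assembled gene, and leaving out each of the 9 fish gave 0 to 1 calls, with the 1 call without C2. DESeq2 without C2, chosen after seeing the data, called 9, with 6 higher and 3 lower at station B. Other normalizations, filters, grouping and thresholds gave 0 calls. The cause of these differences was not tested.

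The replicate numbers were not used to pair the fish in the main test. Deviations of same-numbered fish had correlations of -0.21 to 0.42, with 3 of 9 pairs over 0.1. Those of differently numbered fish had -0.36 to 0.24, with 4 of 18 pairs over 0.1. These values do not settle whether the numbers pair the fish. The headers of the deposited counts number A2, A3 and C3 differently from their replicate numbers, and a block by the header numbers was not run. The replicate block gave 0 calls, with 158 names at an unadjusted p under 0.05, and also 0 without C2. The 6 named fold changes kept their direction under every alternative run. These names were chosen for their small p in the same fish, so the kept direction is a description and not a test. Of 136 named levels at station B, 49 moved by more than 1 SD when only transcripts with a name were the denominator, 25 without mitochondrially encoded transcripts, 11 with TMM factors and 9 when every name of a transcript was counted. Of 33 list shares, 14, 4, 1 and 13 did so under the same alternatives. Division by coding length was not run.

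With 3 fish at each of 3 stations, chloride cannot be told apart from other features of a station. Swiss-Prot names of joined transcripts hide proteins, and a level under 3 counts is not shown to be absent.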
